A study of Mus musculus with 33 samples.

Results

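Hsp90 is a cytosolic chaperone that folds signalling proteins in a cycle driven by ATP, and its cochaperones load clients onto it, set the pace of the cycle or hold one of its states. HSF1 is the transcription factor that induces chaperone genes on heat shock by binding heat shock elements, which are alternating GAA and TTC units. The genes described here are 10 Hsp90 cochaperone genes of the 21631 protein-coding genes on the autosomes and the X chromosome. They are Stip1, Ahsa1, Ahsa2, Fkbp4, Fkbp5, Chordc1, Ptges3, Ppid, Cdc37 and Cacybp. They were chosen by name with earlier results of these data known. All member shares set beside those of all genes, also for ranks and gene ends, therefore describe the group and were not tested. A peak was assigned to a gene when its summit, the place with the most overlapping tags, lay within the gene or 10 kb of it. All 10 genes were found in the gene table.

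Chromatin immunoprecipitation with sequencing (ChIP-seq) was carried out in mouse embryonic fibroblasts (MEFs) of 129Sv.BALB/c background. HSF1-/- MEFs and wild type MEFs were each sampled without heat shock, after 12 min and after 60 min of heat shock. Per the file headers HSF1 was the target, mapped with an antibody from Cell Signaling (CS) and a gift antibody from the Morimoto lab (MM), and SRF, a factor known for immediate early and actin genes, was mapped in wild type MEFs. There was 1 peak list for each of the 15 combinations, so no value has a replicate error and no test compares conditions. The question addressed was which cochaperone genes HSF1 occupied before heat shock, which it reached within 12 min, and which had no peak.

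Depth was 5.18 to 15.6 M tags in the HSF1-/- HSF1 lists and 14.0 to 26.3 M tags in the wild type lists. The HSF1-/- lists were called without a control library and the wild type lists against IgG, so their peak values are not on one scale. Peak lists do not measure expression, and neither the fibroblast identity nor the loss of HSF1 could be checked from them.

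The promoter sequences that hold the best element matches are shown first, because the peak summits lay on or near several of them. The sequences are RefSeq promoter windows of GRCm38.p6, read 5′ to 3′ on the strand of the gene, with positions counted from the start site as 0. Capitals mark the best match, which held 8 of the 9 letters of the GAA and TTC units. At Chordc1 they mark a run of 5 exact units over 23 bases. The element searched was GAANNTTCNNGAA or, read on the other strand, TTCNNGAANNTTC, in a window of 250 bases before to 50 after the start site.
Chordc1 (chr9:18292147-18292296, + strand): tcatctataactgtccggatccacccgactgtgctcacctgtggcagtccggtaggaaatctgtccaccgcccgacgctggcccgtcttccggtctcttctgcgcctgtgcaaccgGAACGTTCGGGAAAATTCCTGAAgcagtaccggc
Ahsa1 (chr12:87266608-87266757, + strand): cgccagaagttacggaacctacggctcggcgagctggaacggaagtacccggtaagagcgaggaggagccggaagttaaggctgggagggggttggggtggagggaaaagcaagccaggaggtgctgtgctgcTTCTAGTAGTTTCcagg
Fkbp4 (chr6:128438730-128438879, - strand): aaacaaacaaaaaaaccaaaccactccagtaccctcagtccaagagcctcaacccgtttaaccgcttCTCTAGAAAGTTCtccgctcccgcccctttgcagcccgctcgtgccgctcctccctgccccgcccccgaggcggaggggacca
Ptges3 (chr10:128058809-128058958, + strand): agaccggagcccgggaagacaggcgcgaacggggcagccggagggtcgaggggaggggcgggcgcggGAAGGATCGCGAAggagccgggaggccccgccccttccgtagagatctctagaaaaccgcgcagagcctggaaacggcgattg
Cdc37 (chr9:21150027-21150176, - strand): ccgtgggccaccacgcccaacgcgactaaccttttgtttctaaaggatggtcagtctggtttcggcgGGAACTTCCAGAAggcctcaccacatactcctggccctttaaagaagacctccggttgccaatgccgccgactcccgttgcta

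No cochaperone gene had a region found by both antibodies, that is a CS and an MM peak that overlap, in HSF1-/- MEFs. In wild type MEFs such regions were found at 8 of the 10 cochaperone genes at 12 and 60 min of heat shock. Stip1, Ahsa1, Fkbp4 and Chordc1 had one before heat shock. Ahsa2, Ptges3, Ppid and Cacybp were added at 12 min, and all 8 had such a region at 60 min too. Fkbp5 and Cdc37 had no wild type peak of either antibody at any time, and no gene of the group was first bound at 60 min.

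In HSF1-/- MEFs 0 of 10 genes had a region of both antibodies at any time, where the share of all protein-coding genes was 2.37% before heat shock, 2.01% after 12 min and 2.55% after 60 min. With shares this low, 0 of 10 cannot be told apart from the background. In wild type MEFs the count was 4 of 10 before heat shock (40.0%), 8 of 10 at 12 min (80.0%) and 8 of 10 at 60 min, against 0.532%, 5.33% and 11.2% of all protein-coding genes. The genes were picked with earlier results of these data known, so these shares describe the group and were not tested. Of all genes, 4.8% were first bound at 12 min, which held 4 of the 10 members, 6.46% were first bound at 60 min, which held none, and 88.2% were never bound, which held 2 of the 10. The 4 members bound before heat shock were bound at all 3 times, as were 0.527% of all genes. The 4 others were bound at both later times but not before, as were 4.23% of all genes.

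In HSF1-/- MEFs the 10 genes held 12 peaks, of 4 to 7 tags and 63 to 146 bp, all with p above 1e-10. None was overlapped by a peak of the other antibody of the same time. The CS lists had a peak at 1 of 10 genes before heat shock, against 21.6% of all genes, at 3 of 10 after 12 min (15.9%) and at 2 of 10 after 60 min (18.1%). The MM lists had one at 0 of 10 before heat shock (9.92%), at 1 of 10 after 12 min (16.8%) and at 1 of 10 after 60 min (11.4%). Over all 6 HSF1-/- lists 5 of 10 genes had a peak within 10 kb, and 48.0% of all protein-coding genes did, so the members stood at the background. In the 6 wild type HSF1 lists the same genes held 42 peaks of 12 to 1138 tags. Depth and control differed between the genotypes, so these tags are not on one scale with those of the HSF1-/- peaks.

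Taken singly, the wild type CS list had a peak at 4 of 10 members before heat shock, against 0.712% of all genes, at 8 of 10 after 12 min (6.41%) and at 8 of 10 after 60 min (13.9%). The MM list had one at 6 of 10 before heat shock (2.03%), at 8 of 10 after 12 min (7.23%) and at 8 of 10 after 60 min (15.4%). The 2 genes that MM added before heat shock were Ptges3 and Ppid.

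**Figure D1:**
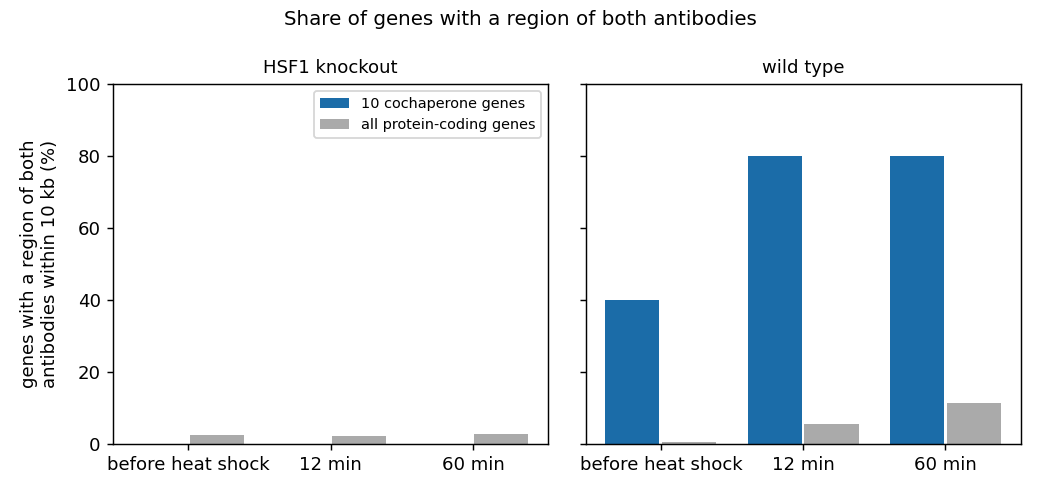
Percent of genes (y axis) with a region found by both antibodies within the gene or 10 kb, at each time (x axis), in HSF1 knockout (left) and wild type (right) MEFs; blue bars are the 10 cochaperone genes and grey bars all 21631 protein-coding genes. The blue bars stand at 40.0%, 80.0% and 80.0% in wild type and at 0% in the knockout.

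Calls before heat shock were the least firm. With p of 1e-10 or less required in both lists, only Stip1 was left, and with a deposited FDR of 5% or less none of the 4 was. Their CS peaks had an FDR of 46.9% to 55.1%. The MM peaks of Fkbp4, Stip1 and Chordc1 had 17.0% to 20.6%. The MM peak of Ahsa1 had a higher FDR, as did those of Ptges3 and Ppid. The share of the list with such an FDR before heat shock was 0% for CS and 0.223% for MM.

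Stip1, Fkbp4, Fkbp5, Ppid and Cdc37 encode adaptors and the immunophilins of Hsp90 complexes. Stip1 (chromosome 19, 7020696 to 7040026, minus strand) encodes Hop, which bridges Hsp70 and Hsp90. In HSF1-/- MEFs the only Stip1 peak was a CS peak of 4 tags at 12 min, 6741 bp outside the gene. In wild type MEFs its peak held 130 CS and 68 MM tags before heat shock, 792 and 518 tags at 12 min, and 1138 and 908 tags at 60 min. It had the most tags of the 10 genes in each of the 6 wild type HSF1 lists. The 95% Poisson interval of its 12 min CS peak was 738 to 849 tags, above that of Chordc1, the next gene, at 519 to 614. The Stip1 peak was also longer, at 2015 against 1164 bp, and lower in fold enrichment, at 90.2 against 122. At 60 min it ranked 7 of 4773 CS peaks and 5 of 4614 MM peaks by tags, but 582 and 237 by fold enrichment (75.8 and 82.4). All 6 summits lay 38 to 71 bp inside the gene from its start site.

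Fkbp4 encodes FKBP52, an immunophilin of steroid receptor complexes (chromosome 6, 128430103 to 128438656, minus strand). No HSF1-/- peak lay at Fkbp4. In wild type MEFs it held 112 CS and 47 MM tags before heat shock, 501 and 343 after 12 min and 578 and 426 after 60 min. Its 6 summits lay 99 to 144 bp upstream of the start site. The element shown above matched 8 of 9 unit letters and lay at -156 to -144. The 4 summits after heat shock were 6 to 42 bp from its centre.

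Fkbp5 encodes FKBP51, the close relative of FKBP52 (chromosome 17, 28398753 to 28486149, minus strand). With a length of 87397 bp it was the longest of the 10 genes. Its HSF1-/- peaks were 4 at 12 min (3 CS, 1 MM) and 2 CS peaks at 60 min, of 4 to 7 tags, and it had no wild type peak in any list. None of these 6 HSF1-/- peaks was overlapped by a peak of the other antibody. The nearest wild type peaks lay beyond the 10 kb limit: at 60 min an MM peak of 25 tags was 15727 bp and a CS peak of 36 tags 21584 bp from the gene, and they did not overlap each other. Fkbp4 was thus called at all 3 times and its relative Fkbp5 at none.

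Ppid encodes cyclophilin 40, an immunophilin of the same kind of complex (chromosome 3, 79591337 to 79603810). In HSF1-/- MEFs a CS peak of 4 tags overlapped the wild type 12 min region, and a CS peak of 6 tags lay 4420 bp outside the gene at 60 min. Without wild type regions that overlap a knockout peak of the same time, 7 of 10 genes were bound at 12 min. Wild type MEFs had no Ppid CS peak before heat shock, and had an MM peak of 15 tags, the median of that list. It held 127 CS and 86 MM tags at 12 min and 217 and 129 at 60 min, the fewest of the 8 bound genes in each of these 4 lists. Its 12 min CS peak ranked 387 of 1781 by tags and 1431 by fold (15.6). The summits after heat shock lay 393 to 422 bp inside the gene from the nearer end, the farthest of the 8 genes, and the MM summit before heat shock lay 261 bp from that at 12 min. Ppid also lost its 12 min call with p of 1e-10 or less.

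Cdc37 encodes the cochaperone that brings protein kinases to Hsp90 (chromosome 9, 21139431 to 21149934, minus strand). It was the only gene of the 10 with no peak in any of the 15 lists within 10 kb. Its promoter nevertheless held an 8 of 9 letter match at -175 to -163 from the start site, shown above. A match describes the letters only. The nearest peaks were HSF1-/- CS peaks of 6 tags at 60 min, 19054 bp away, and of 5 tags before heat shock, 24786 bp away, both inside Pde4a.

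Ahsa1, Ahsa2 and Ptges3 encode proteins that act on the ATP cycle. Ahsa1 encodes Aha1, the activator of the Hsp90 ATPase (chromosome 12, 87266415 to 87273998, plus strand, with the start site used here at 87266728). No HSF1-/- peak lay at Ahsa1. The wild type peaks of Ahsa1 held 36 CS and 12 MM tags before heat shock, 458 and 327 after 12 min and 549 and 436 after 60 min. It was thus below the list medians of 47.5 CS and 15 MM tags before heat shock and ranked 25 of 1781 (CS) and 22 of 1927 (MM) at 12 min. Its CS and MM summits were 194 bp apart before heat shock and 1 bp apart at 12 min, and with an overlap of 50% of both peaks required its call before heat shock was lost. The 4 summits after heat shock lay 20 to 27 bp downstream of the start site and 1 to 8 bp from the centre of the element shown above, an 8 of 9 letter match. All 6 peaks had Ahsa1 as the nearest gene, and the 12 min region summit was 374 bp from Vipas39, the next one.

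Ahsa2 encodes a relative of Aha1 (chromosome 11, 23487882 to 23498045, minus strand). No HSF1-/- peak lay at Ahsa2. No wild type list had a peak before heat shock. Ahsa2 held 237 CS and 138 MM tags at 12 min and 256 and 231 at 60 min, with all 4 summits 108 to 115 bp downstream of the start site. That position is outside the promoter window, where the best match had 6 of 9 letters. Ahsa1 thus had more tags than its relative in each of the 4 lists after heat shock, with counting intervals that did not overlap. The intervals at 12 min were 417 to 502 CS tags at Ahsa1 and 208 to 269 at Ahsa2, in peaks of 1509 and 1134 bp.

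Ptges3 encodes p23, which binds the closed form of Hsp90 (chromosome 10, 128058982 to 128077254, plus strand). In HSF1-/- MEFs CS peaks of 7 and 5 tags lay inside the gene before heat shock, 734 and 14575 bp from the start site, and there was none after heat shock. Before heat shock, the wild type lists had an MM peak of 34 tags (rank 65 of 449) and no CS peak. It held 343 CS and 192 MM tags at 12 min and 420 and 305 at 60 min. The summits after heat shock lay 31 to 60 bp upstream of the start site, and 40 to 69 bp from the centre of an 8 of 9 letter match.

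Chordc1 and Cacybp encode Hsp90 binding proteins outside these classes. Chordc1 encodes a CHORD domain protein (chromosome 9, 18292267 to 18314000, plus strand). No HSF1-/- peak lay at Chordc1. Its wild type peaks held 84 CS and 64 MM tags before heat shock, 565 and 420 after 12 min and 647 and 477 after 60 min. Its 12 min fold enrichment was 122 (CS, rank 16) and 108 (MM, rank 7), the highest of the 10 genes in both lists. The element of Chordc1 shown above is a run of 5 exact units over 23 bases, from 4 bp before to 18 bp after the start site. It was the only one of 32851 promoter windows with 5 or more exact units in a row, a length chosen after this run was seen. The 6 summits of all times lay 6 bp upstream to 14 bp downstream of the start site, within that run for 5 of them.

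Cacybp encodes the calcyclin binding protein (chromosome 1, 160202367 to 160212892, minus strand). An HSF1-/- MM peak of 5 tags overlapped its wild type region at 60 min, and without such regions 7 of 10 genes were bound at that time. The wild type lists had no peak before heat shock. Cacybp held 338 CS and 189 MM tags at 12 min and 531 and 443 at 60 min. By fold it stood at 55.9 (CS) and 45.7 (MM) at 12 min, below Ahsa1, Chordc1, Stip1 and Fkbp4. At 60 min it stood at 124 and 153, the highest of the 10 genes in both lists, with rank 29 of 4614 in MM. The summits lay 57 to 86 bp downstream of the start site, outside the promoter window, where the best match had 7 of 9 letters.

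**Figure D2:**
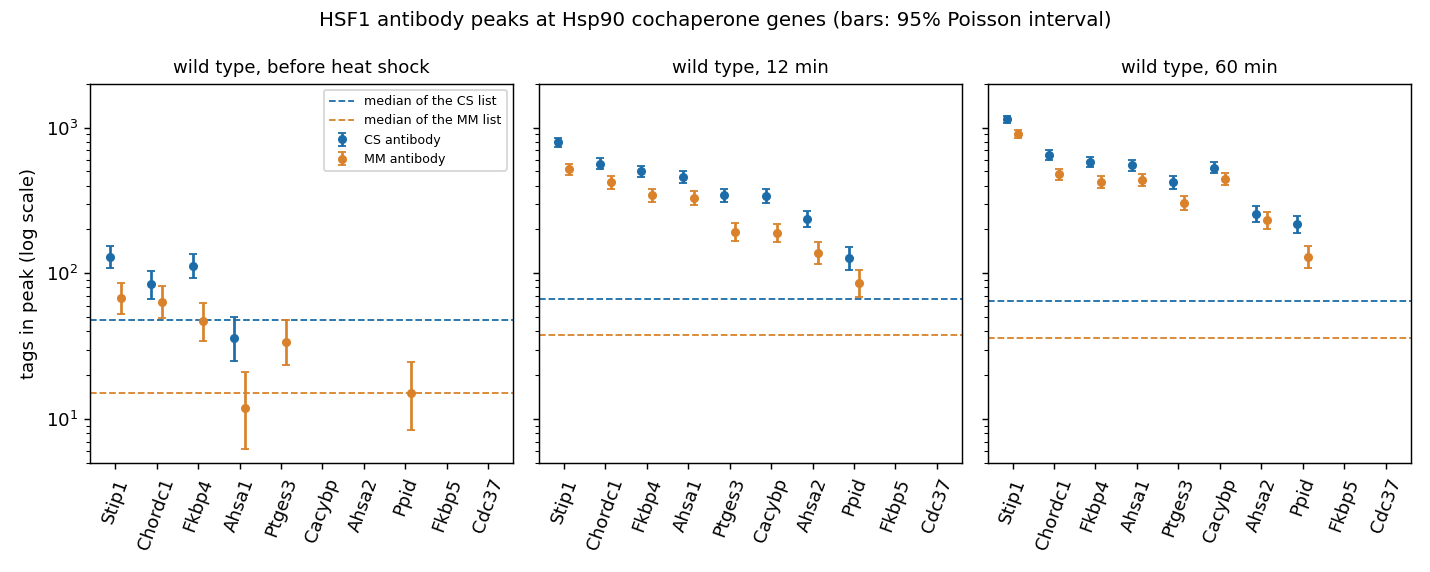
Tags in the peak (y axis, log scale) of each cochaperone gene (x axis) in the wild type lists, by time, with 95% Poisson intervals that cover counting error only; dashed lines are the median of each whole list. At 12 and 60 min all 8 bound genes lie above the median of their list, and Fkbp5 and Cdc37 have no point.

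With both antibodies required, the members bound before heat shock had the most tags later in 3 of the 4 lists. The exception was MM at 60 min. At 12 min the 4 genes bound before heat shock had 458 to 792 CS and 327 to 518 MM tags, and the 4 first bound at 12 min had 127 to 343 CS and 86 to 192 MM tags. The ranges did not overlap in either list. At 60 min they did not overlap for CS (549 to 1138 against 217 to 531). They did overlap for MM (426 to 908 against 129 to 443), through Cacybp. The separation depended on requiring both antibodies before heat shock. Ptges3 and Ppid had MM peaks of 34 and 15 tags then, against 12 at Ahsa1 and 47 to 68 at Fkbp4, Chordc1 and Stip1. With classes set by MM alone the ranges overlapped in all 4 lists. Ppid had the fewest tags in each, and at 12 min the overlap came through Ppid only. At 60 min Ptges3 (420 CS and 305 MM tags) also lay below Cacybp (531 and 443), which had no MM peak before heat shock.

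The same order of classes was seen in the medians of all other genes, but their ranges overlapped. At 12 min the median was 533 CS tags in the members bound before heat shock. In the other genes of that class it was 328, over the 110 that also had a region at 12 min. The median was 288 CS tags in the members first bound at 12 min and 84 in the 1035 other genes of that class. The ranges of the other genes were 93 to 1452 against 22 to 802 CS tags, and 56 to 1076 against 14 to 621 MM tags. Genes that share a region each count, with 78 regions for the 110 genes and 793 for the 1035. Tags grow with the width of a peak and with the depth of its list, and these values were compared only within a list.

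By tags the order of the 8 genes at 12 min was the same with CS and MM: Stip1, Chordc1, Fkbp4, Ahsa1, Ptges3, Cacybp, Ahsa2, Ppid. Within this order the 95% Poisson intervals of neighbours overlapped from Chordc1 to Fkbp4, from Fkbp4 to Ahsa1 and from Ptges3 to Cacybp in both lists, and from Cacybp to Ahsa2 for MM. At 60 min Stip1 stood above the others in both lists, with an interval apart from the next. Chordc1, Fkbp4, Ahsa1 and Cacybp followed, in an order that differed between the lists, with intervals that overlapped from each to its neighbour. Ptges3, Ahsa2 and Ppid came last, and the intervals of Ahsa2 and Ppid overlapped for CS but not for MM.

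By tags 7 of 10 members had a peak in the first 10% of the 12 min CS list, as did 0.851% of all protein-coding genes, and 13.3% of the genes with a peak in that list. In the 12 min MM list it was 7 of 10 members, against 0.934% of all genes and 12.9% of those with a peak. At 60 min it was 7 of 10 members for CS, against 2.05% of all genes and 14.8% of those with a peak, and 8 of 10 for MM, against 2.21% and 14.3%. In each of these lists 8 members had a peak, so the shares of genes with a peak are to be read against those 8. By fold enrichment the counts were lower. In the CS lists they were 4 of 10 members at 12 min, against 0.61% of all genes, and 3 of 10 at 60 min, against 1.61%. In the MM lists they were 6 of 10 at 12 min, against 0.717%, and 5 of 10 at 60 min, against 1.8%.

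**Figure D3:**
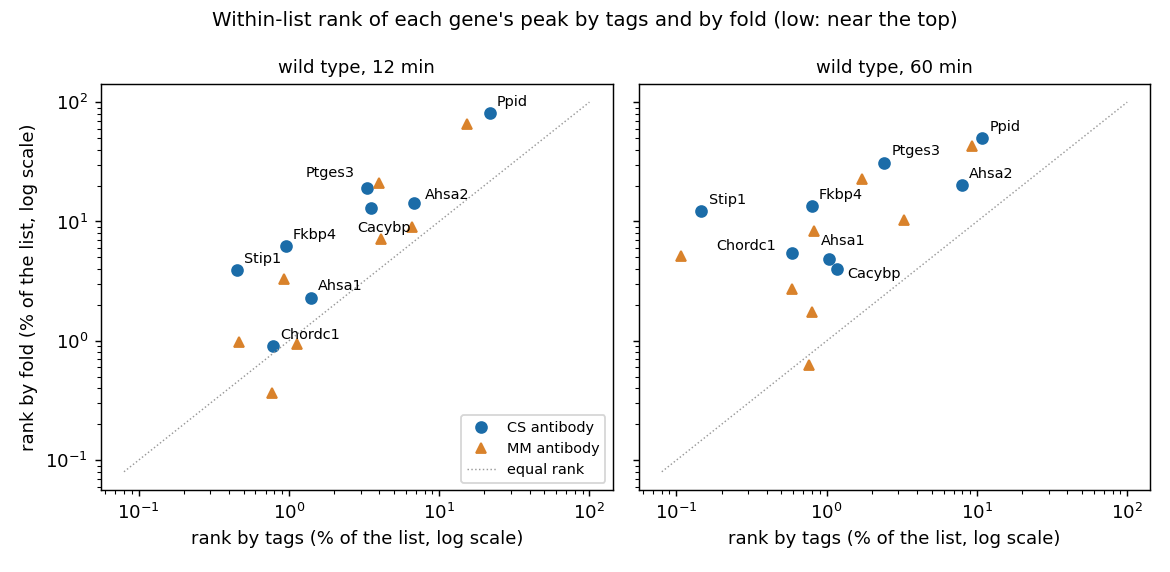
Rank of the CS (circles, named) and MM (triangles) peak of each bound cochaperone gene by tags (x axis) and by fold enrichment (y axis), as percent of the list length, on log axes, at 12 min (left) and 60 min (right) in wild type MEFs. Most points lie above the dotted line of equal rank, and Stip1 at 60 min is at 0.147% by tags and 12.2% by fold.

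The deposited FDR of the 12 min CS list ran against the tags. Stip1, Chordc1, Ahsa1 and Fkbp4, with the most tags, had an FDR of 33.3%, 20%, 8.33% and 6.06%. Ahsa2, Ptges3, Ppid and Cacybp had 3.14% to 4.88%. Of the 50 peaks of that list with the lowest p-values, 38 had an FDR above 5%, whereas 64.0% of the whole list was at or below it. With an FDR of 5% or less in both lists, 4 of 10 members were therefore bound at 12 min, and these were the 4 first bound then. In the 12 min MM list no member exceeded 0.92%, and at 60 min the limit kept all 8.

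All 42 wild type peaks at these genes had their summit within 1 kb of a gene end. A region of both antibodies lay that near an end at 4 of 10 members before heat shock, against 0.194% of all genes, at 8 of 10 after 12 min (1.53%) and at 8 of 10 after 60 min (2.58%). Of all genes with such a region in the 10 kb window, one lay within 1 kb of an end for 36.5% before heat shock, 28.6% after 12 min and 23.0% after 60 min. For 7 of the 8 bound genes the strand was known, and each of their summits was nearer to the start site end than to the other end. Ppid had no strand in the tables used. The distance among the summits after heat shock was 7 to 36 bp per gene.

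Peaks were wider after heat shock. CS peaks of the 4 genes bound before heat shock were 297 to 813 bp long before, 1164 to 2334 bp at 12 min and 1605 to 2677 bp at 60 min. The list medians moved too, with 400 bp, 778 bp and 924 bp for CS. The fragment length estimated by the peak caller differed between these lists, with 45, 128 and 161 bp, and its part in the widths was not tested.

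**Figure D4:**
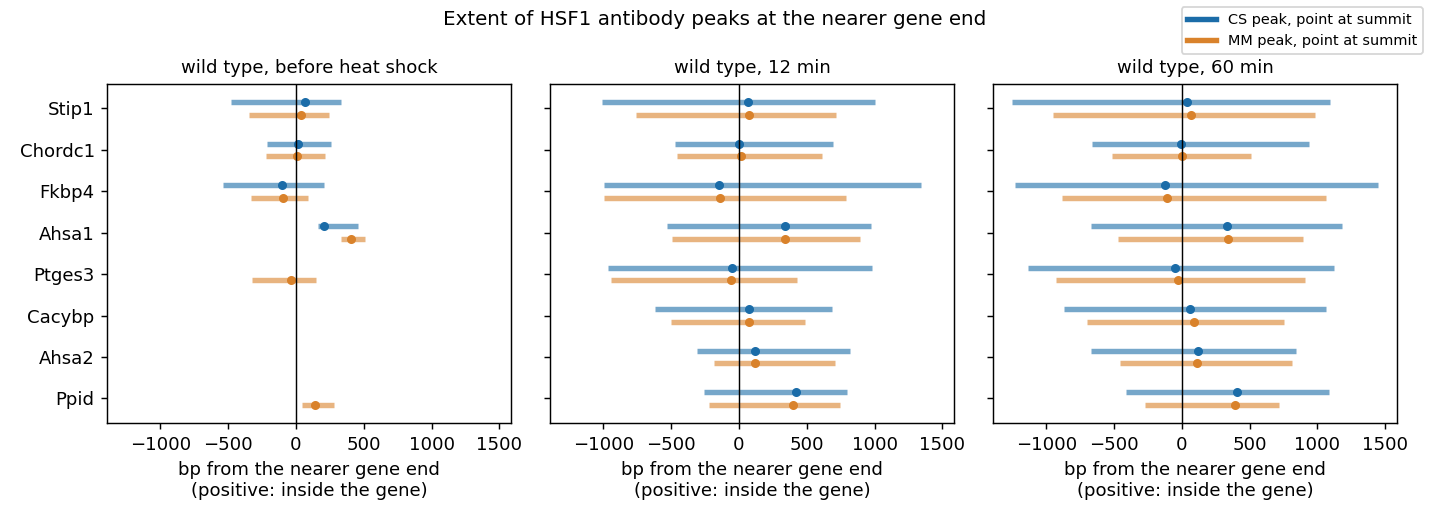
Extent of each wild type CS (blue) and MM (orange) peak, as bars with a point at the summit, in bp from the nearer end of the gene (x axis, positive inside the gene), for the 8 bound genes at each time. Summits after heat shock lie from 144 bp outside (Fkbp4) to 422 bp inside (Ppid).

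SRF had no peak within 10 kb of any of the 10 genes, nor within 25 kb. The share of all protein-coding genes with an SRF peak was 0.194% before heat shock, 0.254% after 12 min and 0.0878% after 60 min, and 0.458% at any time, so 0 of 10 cannot be told apart from the background. The SRF lists had 18 to 68 peaks from 0.751 to 1.55 M tags, and SRF occupancy at these genes was not detectable at this depth.

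Promoter windows were available for 9 of the 10 genes, and Ppid was not among them. At least 8 of 9 letters matched in 4 of 7 bound genes (Chordc1, Ahsa1, Fkbp4 and Ptges3) and in 1 of 2 never bound genes (Cdc37). Of all 32851 windows 7.22% held such a match and 0.603% an exact one, which among the 9 genes was found in Chordc1. Among windows that held the summit of a wild type region of both antibodies, 75.0% of 24 before heat shock, 65.9% of 126 after 12 min and 61.1% of 208 after 60 min had at least 8 of 9 letters. These windows include those of members, and genes with more than 1 start site count more than once. All summits of Ahsa2 and Cacybp and 4 of the 6 of Stip1 lay downstream of the window, so the letters under those were not searched. The Stip1 summits inside it were that of MM before heat shock and that of CS at 60 min, and the best match in that window had 6 of 9 letters.

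The other genes of the Hsp90 system are given as counts, without a test. Of 4 Hsp90 genes, Hsp90aa1 and Hsp90ab1 had a region at every time, Hsp90b1, the endoplasmic reticulum form, at both later times, and Trap1, the mitochondrial form, at none. At 12 min Hsp90ab1 held 1452 CS and 1076 MM tags and Hsp90aa1 567 and 454, so Hsp90ab1 exceeded each of the 10 cochaperone genes in both lists. Of 30 further cochaperone genes, 1 had a region before heat shock (3.33%), 4 after 12 min (13.3%) and 9 after 60 min (30.0%). The shares of all protein-coding genes were 0.532%, 5.33% and 11.2%. Of 14 cell type markers 28.6% had a region at 60 min, so the 60 min count did not stand apart from that set. St13, an Hsp70 and Hsp90 cochaperone, was the one bound before, with 439 CS and 305 MM tags. In HSF1-/- MEFs St13 had CS and MM peaks within 10 kb before heat shock and MM peaks at 12 min. Hsp90ab1 had HSF1-/- CS peaks at all 3 times and MM peaks at 60 min. Neither gene had an HSF1-/- region of both antibodies. Over all protein-coding genes 48.0% had an HSF1-/- peak of either antibody at any of the 3 times. In the single lists it was 21.6%, 15.9% and 18.1% for CS and 9.92%, 16.8% and 11.4% for MM, in order of time. The share of genes with peaks in several of these lists, as at St13 and Hsp90ab1, was not counted. Nudc (160 CS and 99 MM tags), Ppwd1 (77 and 36) and Fkbp8 (52 and 42) were added at 12 min. Unc45b, Rpap3, Ruvbl1, Ruvbl2 and Fnip2 were added at 60 min, at 45 to 161 CS tags. The regions counted for Ppwd1 and Ruvbl2 lay nearer to Cenpk and Ntf5. The 60 min regions of 3 of these 9 genes were over 5 kb from an end of the gene, at Fnip2 (9080 bp), Ruvbl1 (8367 bp) and Ruvbl2 (6993 bp).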

How the data were processed

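ChIP-seq peak lists of 15 of 33 samples were used. The other 18, PRO-seq (nascent RNA), IgG and input libraries, were not analysed here. Per the file headers, the authors used MACS 1.4.2 for HSF1 and MACS2 2.0.9 for SRF, at a p cutoff of 1e-04. Wild type lists had an IgG control, the HSF1 ones from files named as 2 merged replicates. HSF1-/- lists had no control. The build is mm10. No aligner is named in those headers.

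Each HSF1 peak carries deposited tag counts, a score made from the log10 of p, a fold enrichment (ratio) and, in wild type, an FDR in percent. SRF peaks carry a deposited pileup signal, −log10 of p and q, and a fold. Tags were not compared between lists.

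Within a genotype and time, a CS peak and an MM peak sharing 1 bp or more were joined into a region, whose summit is the midpoint of the best CS and MM summits. "Bound" means such a region within the gene or 10 kb. Genes came from the GRCm38.p6 RefSeq table, the primary assembly of mm10, and strands from its promoter table. Poisson intervals (95%, exact) cover counting error only. Region and gene calls were tested on simulated data. Python 3.11.15, pandas 2.3.3 and scipy 1.17.1 were used. All 10 members and the 4 Hsp90 genes are named. Further cochaperone genes are named where they had a wild type region, and neighbour genes where they place a peak or region. The members and lists were chosen with earlier results of these data known. Of 14 cell type markers 0, 1 and 4 had a wild type region at the 3 times, against 0.532%, 5.33% and 11.2% of all genes. Alternatives changed the window, antibody, threshold, overlap and rank.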

Additional observations from a re-analysis of the deposited data

How the results depend on the processing

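Of 54 alternatives, 44 left the count of cochaperone genes within 1.5 times its value. They include SRF and HSF1-/- counts of 0 that stayed 0, which a narrower window or a stricter p could not change. They also include MM alone before heat shock, where 4 genes became 6, at the limit itself. Windows of 1, 5 and 25 kb changed no wild type count. Before heat shock (4 genes), p of 1e-10 or less in both lists left 1 gene, Stip1, and a deposited FDR of 5% or less left 0. At 12 min (8 genes) that FDR left 4, without Stip1, Chordc1, Fkbp4 and Ahsa1. The HSF1-/- count of 0 became, with CS alone, 1 before heat shock (Ptges3), 3 at 12 min (Fkbp5, Ppid and Stip1) and 2 at 60 min (Fkbp5 and Ppid). With MM alone it became 1 at 12 min (Fkbp5) and 1 at 60 min (Cacybp). The count in the first 10% of the CS list, 7 by tags at both times, was 4 at 12 min and 3 at 60 min by fold enrichment. In the MM list it was 7 by tags and 6 by fold at 12 min, and 8 and 5 at 60 min; the MM counts by fold were added after seeing the data. The cause was not tested. No paired analysis was possible because each combination had 1 list and no replicate numbers. With 1 list each, neither biological nor technical spread can be given. Depth and control differed between the genotypes.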

Other observations

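Just beyond the 10 kb limit, wild type regions at 60 min lay 16548 bp (CS, 131 tags) and 16575 bp (MM, 142 tags) from Stip1. Their summits were 154 and 127 bp from Macrod1. Near Cacybp, peaks of 32 CS and 14 MM tags lay 21237 and 21280 bp away, inside Rabgap1l. The Ahsa2 region was 7365 bp from Usp34 at 12 min, and the Cacybp region 6359 bp from Rabgap1l.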
